A study of Mus musculus with 2 samples.

Results

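The lysosomal proteases and membrane proteins described here are 10 genes, chosen as a functional group by name, with earlier results of these data known: the cathepsins Ctsb, Ctsd, Ctsk, Ctsl, Ctss and Ctsz, the asparaginyl endopeptidase Lgmn, and the membrane proteins Lamp1, Cd63 and Cd68. All 10 were among the 19465 genes of both matrices, and all 10 passed the filter on low counts. They were followed in 2 formalin-fixed sections of mouse cerebellum, 5 µm thick, that held breast tumors, and their levels were compared between tumor, edge and neural spots of the same section. The tumors grew from HP organoids, cultures of mouse mammary tumors with the genotype HER2 V777L; PIK3CA H1047R, which were luciferase-labeled and injected stereotactically into the cerebellum of syngeneic C57BL/6 mice. The labels name the organoids HP-F1 +cre for section 1 and HP-B6 +cre for section 2, give HP as the genotype of both and mark both as untreated. The methods describe mice of 5 months for the injection, and they do not give the age at collection of these sections. The HER2 transgene is a human gene under an actin promoter behind a Lox-STOP-Lox element, the primary tumors were started with a Cre-expressing adenovirus, and the luciferase-labeled lines were selected as stable clones. There is no section without tumor, and both sections have the same genotype and treatment, so all comparisons were within sections.

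Lysosomes are acidic organelles in which proteins taken up from outside or delivered from within the cell are cut into peptides and amino acids. Cathepsins are made as inactive precursors, carried to the lysosome by mannose-6-phosphate receptors and activated there by the low pH and by other proteases, and some of them also act outside the cell after secretion. Phagocytes, such as macrophages and activated microglia, hold many lysosomes, and in the brain several of these genes are read at high levels by microglia that clear debris. Lamp1 and the tetraspanin Cd63 sit in the membranes of lysosomes and late endosomes of most cell types, whereas Cd68 is a heavily glycosylated relative of the LAMP proteins that is best known from macrophages.

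Many lysosomal genes carry the letters CACGTG in their promoters, the core of the element that TFEB and TFE3 bind. Promoter windows of 250 bases before a listed start were taken from RefSeq (GRCm38.p6) for 9 of the 10 genes. No window was listed for Ctsb, and Lgmn had windows at 2 starts. CACGTG reads the same on both strands and was present in 6.02% of 32851 mouse windows of this length. Among the 9 genes with a window it was found in 4, with 4 copies in Lamp1, 2 in Ctsd, 1 in Ctsl and 1 at the second start of Lgmn. The windows of Ctsl and Cd63 and that of the second start of Lgmn lay inside the gene as listed. The bases before the outer end of Ctsl and of Cd63 were therefore not searched. At least 2 copies were present in 0.429% of all windows and at least 4 in 0.0213%. The letters GAGGAAGT, part of the site of the macrophage factor PU.1, were searched on both strands and lay in 2.44% of all windows and in none of the 10 windows of these 9 genes. The windows of Lamp1 and Ctsd are shown for their CACGTG copies, and those of Ctss and Ctsk because these neighbors on chromosome 3 lie 17398 bases apart, with 0 protein-coding genes starting between them, and differed in level between the sections as described with Ctsk. Capitals mark CACGTG, the sequences run 5′ to 3′ on the strand of the gene, and the last base is the base before the start.
Lamp1 (chr8:13158911-13159160, plus strand): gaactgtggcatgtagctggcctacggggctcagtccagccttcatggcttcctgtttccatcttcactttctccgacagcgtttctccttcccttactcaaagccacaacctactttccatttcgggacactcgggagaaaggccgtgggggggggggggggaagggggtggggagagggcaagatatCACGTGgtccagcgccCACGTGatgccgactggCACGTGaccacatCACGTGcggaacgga
Ctsd (chr7:142387828-142388077, minus strand): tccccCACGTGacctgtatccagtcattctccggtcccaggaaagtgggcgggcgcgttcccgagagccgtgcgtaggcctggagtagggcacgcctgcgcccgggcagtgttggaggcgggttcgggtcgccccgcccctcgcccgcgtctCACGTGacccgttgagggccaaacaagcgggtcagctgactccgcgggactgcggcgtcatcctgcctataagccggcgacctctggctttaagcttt
Ctss (chr3:95526536-95526785, plus strand): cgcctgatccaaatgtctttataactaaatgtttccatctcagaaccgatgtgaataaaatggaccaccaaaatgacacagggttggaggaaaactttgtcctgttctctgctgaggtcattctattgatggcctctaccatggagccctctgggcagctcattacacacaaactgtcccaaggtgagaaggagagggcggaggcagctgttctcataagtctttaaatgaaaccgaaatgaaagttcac
Ctsk (chr3:95498960-95499209, plus strand): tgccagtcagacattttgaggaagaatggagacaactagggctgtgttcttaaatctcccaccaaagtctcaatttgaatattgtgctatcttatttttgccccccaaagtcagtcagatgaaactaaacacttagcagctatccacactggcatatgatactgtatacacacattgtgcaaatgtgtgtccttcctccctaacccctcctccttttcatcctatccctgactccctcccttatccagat
The copies of Lamp1 began 61, 45, 28 and 15 bases before the start, and those of Ctsd 245 and 98 bases before it. A match of letters is a description of the sequence, and binding was not measured.

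The sections were profiled by Visium CytAssist, which hybridizes probe pairs to transcripts, moves them onto an array whose spots each carry their own barcode, and counts them as unique molecular identifiers (UMIs). A spot is a small area that can hold several cells or parts of cells. Section 1 had 3406 spots under tissue with 63986887 UMIs, and section 2 had 4017 spots with 71878333 UMIs. The sections shared 3096 barcodes, which name positions of the array and not cells. Spots were assigned to regions with epithelial, stromal, neuronal and glial genes, and none of the 10 genes was used. The tumor region was the inside of the mass, the edge was split into a tumor side and a neural side of 2 array steps each (a step is the distance between neighboring spots), and the neural region lay farther out. From the inside outward the regions held 737, 122, 127 and 2323 spots in section 1 and 884, 182, 188 and 2688 spots in section 2. Levels are UMIs summed over the spots of a region and scaled by the TMM method to counts per 1000000 UMIs (CPM). These 8 libraries of 2110972 to 39157563 UMIs were compared in edgeR (quasi-likelihood test, section as block, Benjamini-Hochberg adjustment over 19089 genes), and a gene was called where its adjusted p was below 0.05. The 2 sections are the only replicates. The fit of the 8 libraries had 3 residual degrees of freedom, and these count the edge sides of a section as separate libraries although they come from the same animal.

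The sections differed in what the mass was made of, and this touches each value of the tumor region. The 8 epithelial genes used for the regions summed to 52.3 CPM in the tumor region of section 1 and to 12929 CPM in that of section 2, with Epcam at 6.58 CPM in the mass of section 1 and at 1681 and 1502 CPM in the 2 mass areas of section 2. The 8 stromal genes, among them the collagens Col1a1 and Col3a1, summed to 71436 and 4047 CPM. The mass of section 1 was thus rich in collagen transcripts and did not show the epithelial markers of a mammary tumor, and "tumor" names it here by its label and place. In the neural regions 7 granule neuron markers summed to 985 and 2213 CPM and 7 Purkinje cell markers to 2668 and 4391 CPM, and both lists were lower in the tumor region, at 106 and 159 CPM and at 149 and 138 CPM. The median spot held 55028 and 40504 UMIs in the tumor region, 22809 and 20239 on the tumor side of the edge, 14859 and 13976 on its neural side and 7490 and 9614.5 in the neural region.

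**Figure D1:**
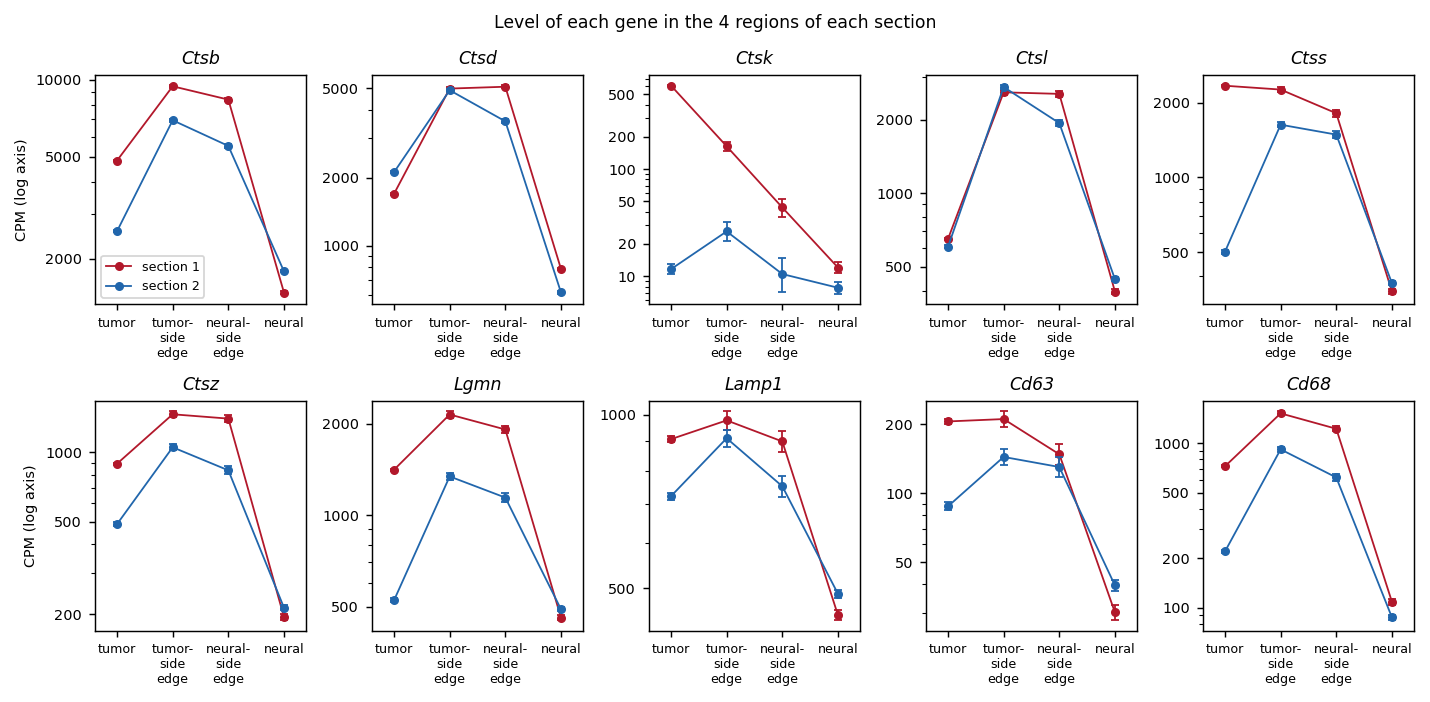
Level of each of the 10 genes (CPM, log axis) in the 4 regions of section 1 (red) and section 2 (blue), with bars for the 95% Poisson interval of the count, which covers counting error only. In section 2 each gene was highest on the tumor side of the edge, whereas in section 1 Ctsk and Ctss were highest inside the tumor and Ctsd on the neural side of the edge.

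The question put to the edge was whether lysosomal genes stood higher where the mass met neural tissue than in neural tissue farther away. The neural region was not limited to the cerebellum. Of the 10 genes, 9 were called higher in the edge than in the neural region, by 1.87-fold for Lamp1 to 10.1-fold for Cd68. Ctsk was 3.09-fold higher in the same fit and was not called. The 10 genes together made up 25741 and 20593 CPM on the tumor side of the edge, 23440 and 15996 CPM on its neural side and 4257 and 4548 CPM in the neural region of sections 1 and 2. Among all genes tested, 10.1% were called higher in the edge, 12.8% lower and 22.9% in either direction. All 10 were higher in the edge, as the mean of its sides, in both sections. Of all genes 6536 were higher and 8054 lower in both. The edge libraries of a section come from the same animal. How many of all genes had edge and neural libraries without overlap was not counted. The median log2 fold change of the 10 genes was 2.20, beside -0.06 over all genes tested. In bulk sums such as these, fewer cells of a type and less RNA per cell cannot be told apart.

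Ctsd (chr7:142375910-142387827) encodes cathepsin D, the main aspartic protease of lysosomes. It stood at 4988 and 5083 CPM on the tumor and neural sides of the edge in section 1 and at 787 CPM in the neural region. In section 2 these levels were 4904, 3567 and 618 CPM. The 4 edge libraries were all far above the neural libraries, and the edge was 6.59-fold higher (log2 fold change 2.72 ± 0.27 SE, edgeR's quasi-likelihood test, adjusted p = 0.00266).

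Ctsb (chr14:63122462-63145923), for cathepsin B, a cysteine protease that cuts both inside chains and at their ends, rose likewise. Its levels in section 1 were 9434 and 8367 CPM in the edge and 1473 CPM in the neural region. In section 2 they were 6947, 5515 and 1783 CPM. No edge library overlapped with a neural one, and the difference was 4.45-fold (log2 2.15 ± 0.32 SE, edgeR adjusted p = 0.00673).

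Ctsl (chr13:64361890-64370772) encodes cathepsin L, a cysteine endopeptidase of most cell types. It stood at 2590 and 2552 CPM in the edge of section 1 and at 396 CPM in its neural region. The edge of section 2 had 2723 and 1938 CPM and its neural region 445 CPM. The edge libraries lay well above the neural ones, the sections gave log2 2.70 and 2.37, and the fit gave 5.79-fold (log2 2.53 ± 0.22 SE, edgeR adjusted p = 0.00241).

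Ctsz (chr2:174427494-174439039), for cathepsin Z, a carboxypeptidase, had 1455 and 1394 CPM in the edge and 194 CPM in the neural region of section 1. Section 2 had 1049, 834 and 213 CPM. The neural levels of the sections were close to each other, the edge levels of section 1 were the higher ones, and the edge stood 5.56-fold above the neural region (log2 2.47 ± 0.28 SE, edgeR adjusted p = 0.00309).

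Ctss (chr3:95526786-95556405) encodes cathepsin S, a cysteine protease of antigen-presenting cells that trims the invariant chain of MHC class II. Its edge levels were 2260 and 1814 CPM in section 1 and 1632 and 1488 CPM in section 2, beside 347 and 375 CPM in the neural regions. The edge and neural libraries did not overlap, and the difference of 4.77-fold had the widest error among the called members (log2 2.25 ± 0.53 SE, edgeR adjusted p = 0.0294).

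Lgmn (chr12:102394082-102439728) encodes legumain, a protease that cuts after asparagine and matures several cathepsins. It stood at 2149 and 1918 CPM in the edge of section 1 and at 460 CPM in its neural region. Section 2 had 1343 and 1144 CPM in the edge and 490 CPM in the neural region. All edge libraries were above both neural ones, by 3.22-fold in the fit (log2 1.69 ± 0.34 SE, edgeR adjusted p = 0.0164).

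Cd68 (chr11:69664213-69666170) showed the largest fold change of the 10 genes in the edge. Its levels were 1514 and 1221 CPM in the edge and 109 CPM in the neural region of section 1. In section 2 they were 915 and 618 CPM and 87.5 CPM. Each edge library was far above both neural ones, and the fit gave 10.1-fold (log2 3.34 ± 0.35 SE, edgeR adjusted p = 0.00278).

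Cd63 (chr10:128896231-128912822) stood at 211 and 148 CPM in the edge of section 1 and at 30.2 CPM in its neural region. In section 2 it stood at 144 and 130 CPM in the edge and 39.6 CPM in the neural region, and the edge was 4.35-fold higher (log2 2.12 ± 0.36 SE, edgeR adjusted p = 0.00987). Lamp1 (chr8:13159161-13175338), the LAMP protein that coats the inner face of the lysosomal membrane, moved least, with 978 and 899 CPM in the edge and 449 CPM in the neural region of section 1. Its levels in section 2 were 910, 751 and 489 CPM. The libraries of Lamp1 still did not overlap, and its difference of 1.87-fold was called (log2 0.90 ± 0.18 SE, edgeR adjusted p = 0.0163).

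Ctsk (chr3:95499210-95509387), for cathepsin K, a collagen-cutting protease known from osteoclasts and from activated fibroblasts, went its own way. It stood at 163 and 43.8 CPM on the sides of the edge and at 12.1 CPM in the neural region of section 1. In section 2 the levels were 26.2, 10.5 and 7.81 CPM, from 100, 31 and 238 UMIs. The edge was above the neural region in each section, but the sizes differed widely between sections, and the gene was not called (log2 1.63 ± 1.02 SE, edgeR adjusted p = 0.331).

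How far the edge stood out depended on which neural spots it was set against. With neural spots within 12 array steps of the mass as the reference, 5 of the 10 genes and 2230 of all genes were called, and Ctss, Lgmn, Lamp1 and Cd63 lost their call. With the edge sides summed to 1 library a section, which leaves fewer libraries, 4 of the 10 genes and 1620 of all genes were called, and Ctsb lost its call as well as those 4. Over both settings the edgeR adjusted p of these 5 genes rose to at most 0.0518 for Ctsb, 0.0654 for Cd63, 0.0942 for Lamp1, 0.0943 for Lgmn and 0.182 for Ctss.

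**Figure D2:**
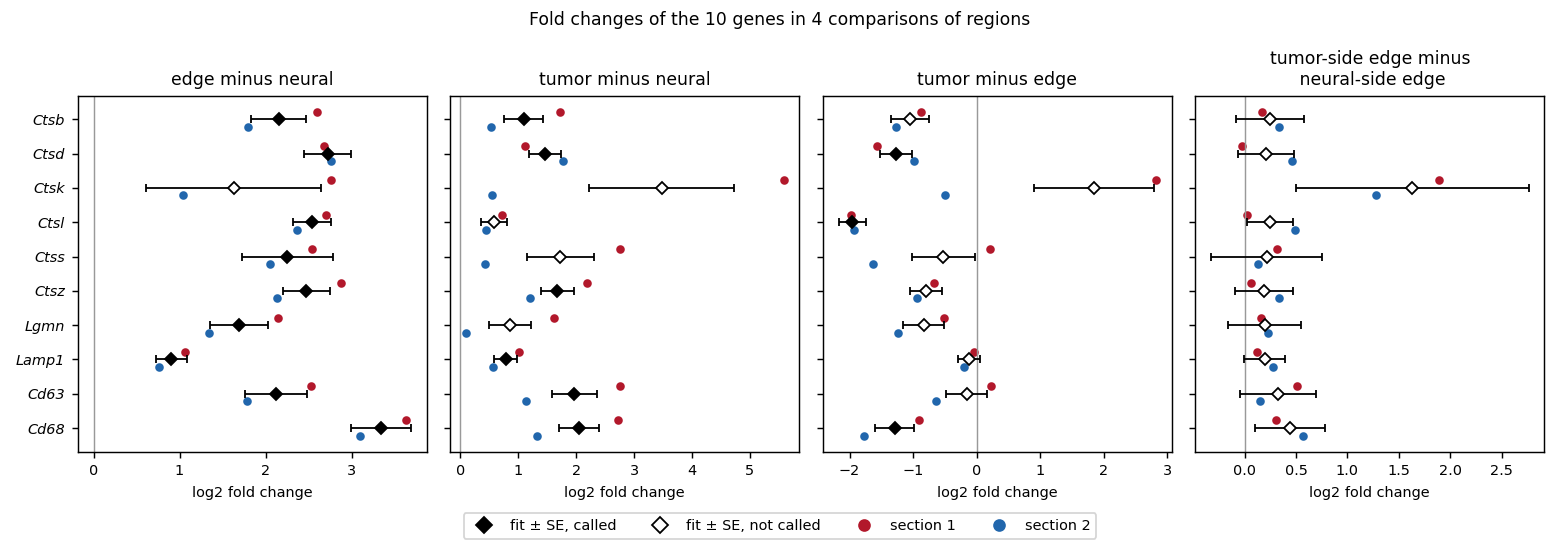
Log2 fold change of the 10 genes in 4 comparisons of regions, from the fit (diamonds with standard errors, filled where called) and within section 1 (red) and section 2 (blue). In the edge against the neural region all diamonds and sections lie above 0, and in the tumor region against the neural region section 1 lies above section 2 for each gene but Ctsd.

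The tumor region was compared with the neural region next, to ask whether these genes marked the mass as a whole. Here 6 of the 10 genes were called higher, namely Ctsb, Ctsd, Ctsz, Lamp1, Cd63 and Cd68, while 19.8% of all genes tested were called higher, 18.1% lower and 37.9% in either direction. Of the calls among all genes 52.3% were higher, against 31.8% when only library size was scaled for, which moved the log2 median over all genes from -0.09 to -0.43 and left Ctsb and Lamp1 without a call. The fold changes of the called members ran from 1.72 for Lamp1 to 4.14 for Cd68. The 10 genes summed to 14264 CPM in the tumor region of section 1 and to 7837 CPM in that of section 2.

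Among the called members, Cd68 stood at 722 and 220 CPM in the tumor regions of sections 1 and 2, against 109 and 87.5 CPM in the neural regions (log2 2.05 ± 0.35 SE, edgeR adjusted p = 0.0057). Cd63 stood at 206 and 87.7 CPM (log2 1.97 ± 0.39 SE, edgeR adjusted p = 0.00982). Ctsz had 891 and 489 CPM (log2 1.68 ± 0.29 SE, edgeR adjusted p = 0.0057). In all 3 the tumor region of section 1 was the higher one, and each section lay above its neural region.

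Ctsd was the exception to that order, with 1697 CPM in the tumor region of section 1 and 2117 CPM in that of section 2 (log2 1.46 ± 0.28 SE, edgeR adjusted p = 0.00852). Lamp1 had 907 and 722 CPM (log2 0.79 ± 0.20 SE, edgeR adjusted p = 0.0245). Ctsb had 4835 and 2560 CPM (log2 1.10 ± 0.34 SE, edgeR adjusted p = 0.0455). The call of Ctsb lay close to the threshold, and it was lost in 7 alternative settings.

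The remaining genes were not called. Ctss stood at 2342 CPM in the tumor region of section 1 and at 502 CPM in that of section 2 (log2 1.73 ± 0.57 SE, edgeR adjusted p = 0.0601). Lgmn stood at 1413 and 524 CPM (log2 0.85 ± 0.36 SE, edgeR adjusted p = 0.113). Ctsl, with 650 and 604 CPM, was close between the sections and only a little above its neural levels (log2 0.57 ± 0.22 SE, edgeR adjusted p = 0.0915). Without section 1, which lacked epithelial markers, the fold changes of the 10 genes in section 2 ran from 1.07 to 3.42 with a median of 1.47, whereas section 1 alone gave 1.64 to 47.9 with a median of 3.88. Whether the sections differ could not be tested, since each gave 1 library a region. Against neural spots within 12 steps of the mass none of the 10 genes was called in this comparison, while 6035 of all genes were (7234 with all neural spots), and the log2 fold change of Ctsl turned to -0.32 (edgeR adjusted p = 0.25).

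The widest gap between the sections was that of Ctsk. It stood at 601 CPM in the tumor region of section 1, from 20843 UMIs, and at 11.6 CPM in that of section 2, from 337 UMIs. At least 1 UMI of Ctsk was present in 96.1% and 30.3% of tumor spots, at the depths given above, and in 9.77% and 8.18% of neural spots. The fit gave log2 3.47 ± 1.24 SE and no call (edgeR adjusted p = 0.075). Its neighbor Ctss differed less between the same regions, as given above. Beside Ctsk, the stromal genes were also higher in the tumor region of section 1, as given above, 7 fibroblast markers summed to 1600 and 213 CPM there, and 6 osteoclast markers, a list that holds Acp5 and Atp6v0d2, summed to 966 and 203 CPM. Several lists of other cell types differed in the same direction there. Macrophage markers summed to 9738 and 2721 CPM and B and plasma cell markers to 1038 and 168 CPM. T cell markers summed to 322 and 15.7 CPM and choroid plexus markers to 690 and 41.9 CPM. Other lists went the opposite way, among them astrocyte markers at 1665 and 4884 CPM and endothelial markers at 325 and 498 CPM. Against the neural region, 6 of 7 choroid plexus markers were lower in the tumor in both sections and 1 was higher. The fibroblast list was mixed too, with 3 of 7 markers higher and 2 lower in both sections. No gene of these lists was at 0 in any library. The part of these cell types in the levels of Ctsk was not tested.

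Inside the mass against the edge, 3 of the 10 genes were called lower, beside 7.87% of all genes tested called lower, 6.41% called higher and 14.3% in either direction. These were Ctsl, Ctsd and Cd68. Each had a tumor region below both of its edge libraries in each section, as had Ctsb, Ctsz and Lgmn, which were not called. Against the mean of the edge sides, 7 of the 10 genes were lower in both sections. Of all genes 5790 were lower and 7041 higher in both. Ctsl fell from the edge levels above to 650 and 604 CPM, a log2 fold change of -1.96 ± 0.21 SE (edgeR adjusted p = 0.0037), and Ctsd to 1697 and 2117 CPM, -1.26 ± 0.25 SE (edgeR adjusted p = 0.0269). Cd68 was lower by -1.29 ± 0.31 SE on the log2 scale (edgeR adjusted p = 0.0435).

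Of the other 7 genes, Ctsb (log2 -1.06 ± 0.30 SE, edgeR adjusted p = 0.0658), Ctsz (-0.80 ± 0.25 SE, adjusted p = 0.0829) and Lgmn (-0.84 ± 0.32 SE, adjusted p = 0.129) were below the edge in each section without a call. Lamp1 was nearly level with the edge (log2 -0.12 ± 0.17 SE, edgeR adjusted p = 0.666). Ctss, Cd63 and Ctsk lay above the edge in section 1, at log2 0.21, 0.22 and 2.82, and below it in section 2, at -1.63, -0.64 and -0.50. This comparison depends on scaling, since a tumor spot held more UMIs than an edge spot. In raw UMIs per spot the tumor region was above the edge for 8 of the 10 genes in section 1 and for 3 in section 2, and Ctsl and Ctsd were below it in each section, at log2 -0.84 and -1.08 for Ctsl and -0.42 and -0.13 for Ctsd. When only library size was scaled for, which moved the log2 median over all genes from 0.07 to -0.22, 12.5% of calls among all genes were higher, beside 44.9% with TMM, and Ctsb and Ctsz were called lower too. Cd68 in raw UMIs per spot was above the edge in section 1 (log2 0.23) and below it in section 2 (-0.93).

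Between the sides of the edge no member was called, and no gene of the 19089 was called by edgeR (0.00% in either direction). At an unadjusted p under 0.05 there were 2181 genes, none of them among the 10, and DESeq2 called 456 genes and none of the 10. The tumor side was the higher one for 9 genes in section 1, with Ctsd as the exception (log2 -0.03), and for all 10 in section 2, while 6763 of all genes were higher and 5844 lower on that side in both sections. The log2 differences of the genes other than Ctsk ran from 0.19 for Ctsz to 0.44 for Cd68. Differences of this size were within the error of the fit with 2 sections.

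**Figure D3:**
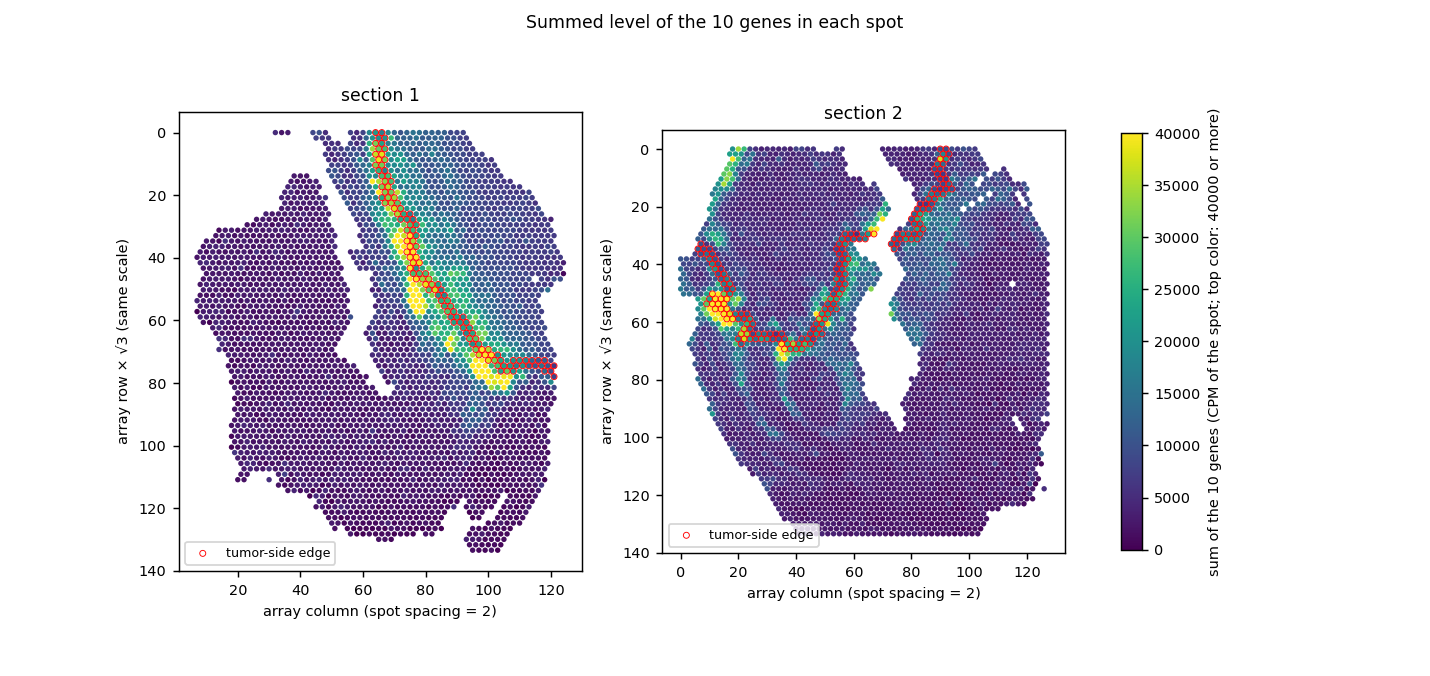
Sum of the 10 genes in each spot (CPM of the spot, color) on the array of each section, with the spots of the tumor-side edge outlined in red. The highest sums form a band along and just outside the outlined spots in section 1 and patches along the border in section 2, where part of the tissue margin at the upper left is also high, and the inside of the mass of section 1 stays above that of section 2.

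Spot by spot, the sum of the 10 genes had a median of 27434 CPM on the tumor side of the edge, 26006 CPM on its neural side, 10312 CPM in the tumor region and 2699 CPM in the neural region of section 1. In section 2 the medians were 15312, 14493, 4993 and 3592 CPM. The highest 5% of spots began at 40722 CPM on the tumor side and 47518 CPM on the neural side of the edge in section 1, and at 53272 and 38809 CPM in section 2. In the neural regions the highest 5% of spots began at 11053 and 12466 CPM, well over the medians there. These are levels of spots within 1 section, which are not replicates.

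Distance from the border gave a finer picture, in CPM of the UMIs of the spots at each step. These levels were not scaled by TMM and so differ somewhat from the region levels above. Not all genes were profiled in this way, so no share over all genes stands beside the peaks. In section 2 all 10 genes were highest in the spots 1 step inside the border. For Ctsk this rested on 49 UMIs (27.8 CPM), beside 51 UMIs (23.4 CPM) 2 steps inside. Cd63 of section 2 was close on both sides, at 157 CPM 1 step inside and 152 CPM 1 step outside. In section 1 the peak lay 1 step outside it for Ctsb, Ctsd, Ctsl, Ctsz, Lamp1 and Cd68 and 1 step inside it for Lgmn and Cd63. Ctss peaked 7 steps inside the border of section 1, at 2654 CPM, and Ctsk 14 steps inside it, at 1064 CPM. In the spots 15 or more steps inside, Ctsk was lower again, at 409 CPM. The course of Ctss was broad, with 2398 CPM 1 step inside the border and 2137 CPM 1 step outside it. The genes of section 1 thus peaked at different depths, Ctsk well inside the mass and Ctss on a broad course that reached across the border.

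**Figure D4:**
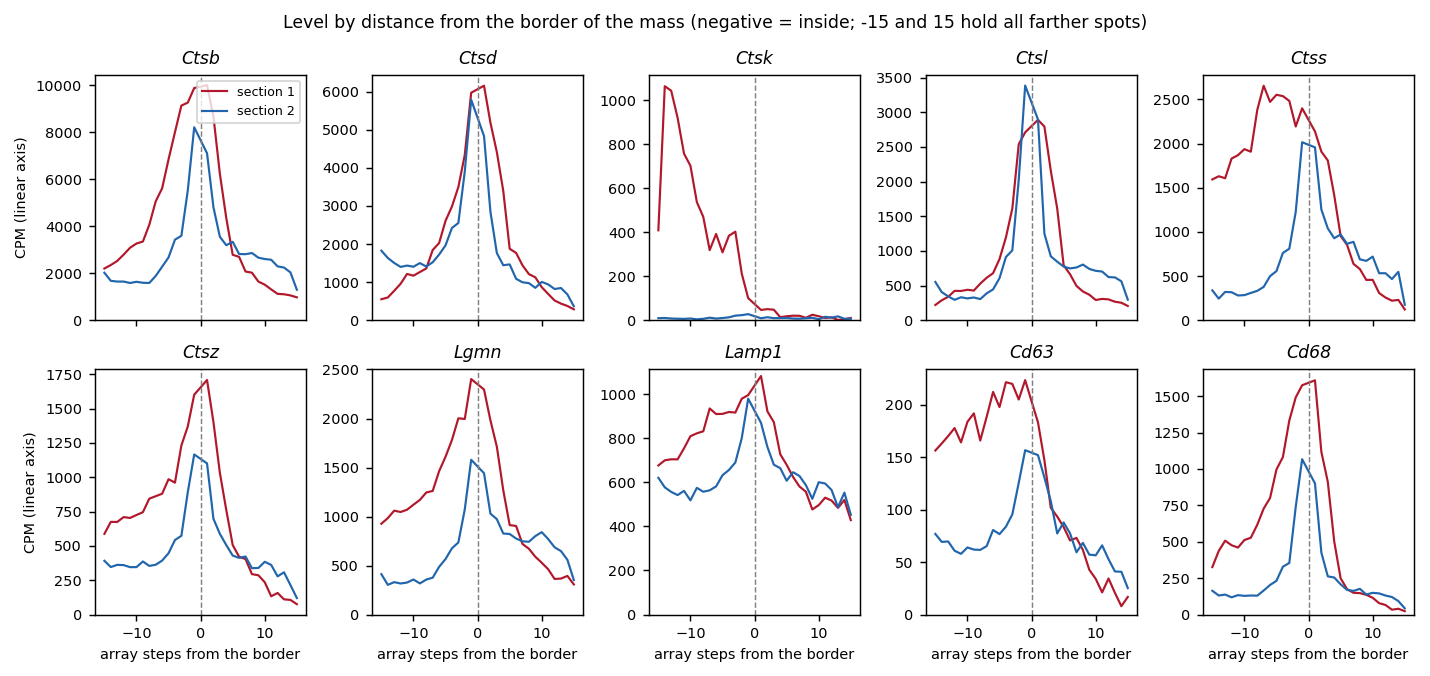
Level of each gene (CPM without TMM scaling, linear axis) by array steps from the border of the mass, negative inside and positive outside. Section 1 is red and section 2 blue, and the outermost points hold all farther spots. Each gene of section 2 peaks 1 step inside the border, though Ctsk does so on 49 UMIs. The band is narrow for Ctsl, Ctsd and Cd68 and the course flat for Lamp1. Ctsk of section 1 is highest 14 steps inside (1064 CPM) and lower at the innermost point (409 CPM).

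The width of the band differed between genes and sections. Cd68 peaked at 1608 CPM in section 1, against 411 CPM at 10 or more steps inside and 30.2 CPM at 10 or more steps outside. In section 2 it peaked at 1067 CPM, against 144 and 57.3 CPM. Ctsl was similar, with a peak of 2892 CPM in section 1 beside 313 CPM inside and 220 CPM outside, and a peak of 3386 CPM in section 2 beside 430 and 357 CPM.

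Levels of at least 50% of the peak reached from 3 steps inside to 4 steps outside the border for Ctsl and Ctsd in section 1. In section 2 they reached from 2 steps inside to 1 step outside for Ctsl, Ctsd and Cd68. Lamp1 was the flattest gene, and its peak was 1.52 and 1.69 times the level 10 or more steps inside and 2.44 and 2.08 times that 10 or more steps outside. Cd63 in section 1 was flat inside the mass too, at 1.35 times, and then 12.5 times its far outside level. Csf1r, a receptor of macrophages and microglia that is no member of the group, was highest 14 steps inside in section 1 and 5 steps outside in section 2. Its peak thus lay elsewhere than that of most members, but this did not hold for macrophage markers as a list. The 11 macrophage markers together, Csf1r among them, were highest 1 step outside the border in section 1, at 10380 CPM. In section 2 they were highest 1 step inside it, at 8586 CPM, so their peaks lay where those of most members did. The order in section 1 depended on scaling. In the TMM-scaled region levels this list was higher in the tumor region, at 9738 CPM, than on the edge sides, at 8810 and 8806 CPM.

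Macrophage markers, like most of the 10 genes, were higher in the edge than in the neural region, but in section 1 they were also high inside the tumor, where the sum of the 10 genes was lower than in the edge. The 11 markers of the list, with Csf1r, Aif1, C1qa and Tyrobp among them, summed to 8810 and 8806 CPM on the tumor and neural sides of the edge in section 1, to 9738 CPM in its tumor region and to 1771 CPM in its neural region. In section 2 the sums were 7483, 6305, 2721 and 2057 CPM. Of these 11 markers 8 were called higher in the edge than in the neural region, 4 in the tumor than in the neural region, and none was at 0 in any library. Of all genes tested, 10.1% were called higher in the edge than in the neural region. In the tumor against the neural region 19.8% of all genes were called higher and 18.1% lower. The 7 homeostatic microglia markers, with P2ry12 and Tmem119 among them, were not called in the edge against the neural region (lowest edgeR adjusted p = 0.236, Tmem119), and 2 of them, Sall1 and Siglech, were called lower in the tumor than in the neural region. Lipid-laden macrophage markers, with Gpnmb, Spp1, Trem2 and Lpl among them, were called higher in the edge in 6 of 6 cases. In the tumor against the edge 3 of these 6 were called lower, beside 7.87% of all genes tested. The part of cell numbers in the levels of the lysosomal genes was not tested.

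Set against the macrophage list in the same library, the members did not keep a fixed ratio to it. Cd68 stood at 17.2 and 13.9 UMIs per 100 UMIs of the list on the tumor and neural sides of the edge in section 1, at 6.14 in its neural region and at 7.42 in its tumor region. In section 2 the same ratios were 12.2, 9.8, 4.25 and 8.08. Lamp1 went the other way between edge and neural region, with 11.1 and 10.2 in the edge and 25.3 in the neural region of section 1 and 12.2, 11.9 and 23.8 in section 2.

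Across the group, the ratio on the tumor side of the edge was over that of the neural region for 8 genes in section 1 and 7 in section 2, with medians of 1.31 and 1.13 times. Ctsl stood at 22.4 per 100 in the neural region and 29.4 on the tumor side of the edge in section 1, and at 21.6 and 36.4 in section 2, as values with no test. In the tumor region of section 1 most members were low against the list, with 6 of 10 below the neural ratio, whereas in section 2 9 of 10 were above it. These ratios are set by both the member and the list.

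Edge spots differed among themselves, and 2 marker sets split them. Arg1, for arginase 1, is known from alternatively activated macrophages, and the 10% of edge spots with the most Arg1 numbered 25 in section 1 and 37 in section 2. Relative to the other edge spots of the same section, 9 of the 10 genes were higher there, by 1.14 to 1.74 times in section 1 and 1.37 to 2.37 times in section 2. Ctsk was the exception, at 0.826 and 0.89 times. The median depth was 17201 UMIs against 19719 in the other edge spots of section 1 and 15887 against 16347 in section 2.

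Spots ranked by Spp1 and Gpnmb, genes of lipid-laden macrophages, gave larger ratios for most genes, though not for Cd63 in either section or for Ctss in section 1. All 10 genes were higher in the top 10% of edge spots, by 1.14 (Cd63) to 1.80 (Ctsl) times in section 1 and by 1.88 (Cd63) to 6.14 (Ctsl) times in section 2. Cd68 was 1.62 and 4.65 times as high, and Ctsd 1.58 and 3.75 times. Ctsk was higher in these spots, at 1.40 and 2.15 times. The median depth was 15674 UMIs against 19857 in section 1 and 19086 against 16200 in section 2. The spots share a section, and the ratios for both marker sets have no test. They were taken for the 10 genes only, so no share over all genes stands beside them.

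**Figure D5:**
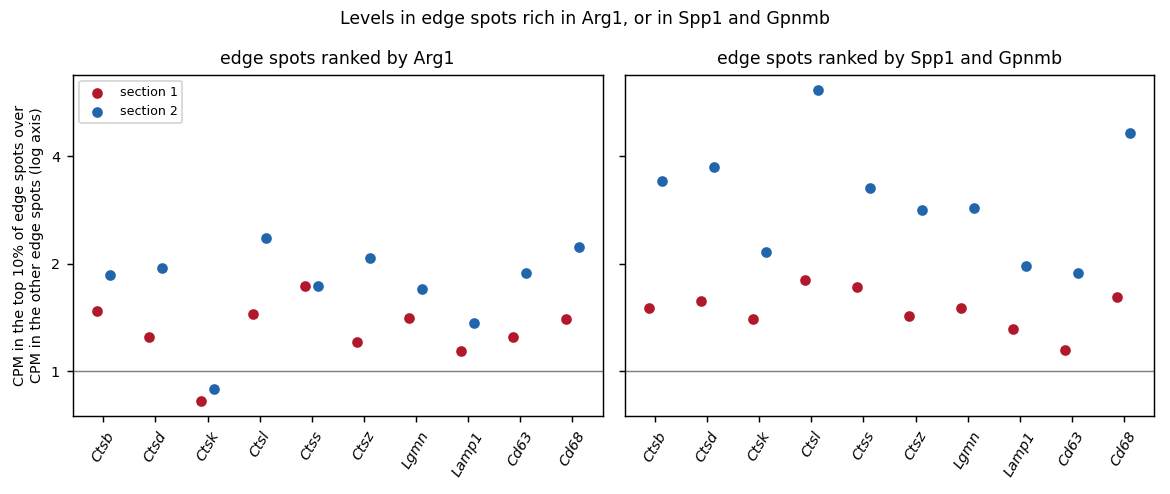
Ratio of the level of each gene in the 10% of edge spots richest in Arg1 (left) or in Spp1 and Gpnmb (right) to its level in the other edge spots (log axis), in section 1 (red) and section 2 (blue). Every gene except Ctsk lies above 1 in the left panel, and all lie above 1 in the right panel, with Ctsl of section 2 highest at 6.14.

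Across spots, after the mean of each region was subtracted, the 9 genes other than Ctsk varied together. The 36 pairs among them had a Pearson r of 0.177 to 0.468 with a median of 0.342 over the 3309 spots of section 1, and of 0.108 to 0.516 with a median of 0.379 over the 3942 spots of section 2. The 9 pairs with Ctsk had medians of 0.0433 and 0.029, but Ctsk had a UMI in only 9.77% and 8.18% of neural spots, which limits its r. Ctsb and Ctsd were among the closest pairs, with r of 0.468 and 0.503. Changes with distance inside a region remain after this step. In the neural region of section 1 Ctsd ran from 4410 CPM 3 steps outside the border to 287 CPM at 15 or more steps. The usual r of other gene pairs was not computed. Spots of 1 section share a library and differ in depth, so these values are descriptions.

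The genes most like each member were sought among 9964 genes with a UMI in at least 20% of the spots of both sections, ranked by the lower r of the 2 sections. Cd68 was closest to Mpeg1, Fcer1g and C1qc, and Ctss to C1qa, Mpeg1 and Fcer1g, all of them genes of macrophages and microglia. For Ctss with C1qa, r was 0.473 and 0.603. Ctsd was closest to Ctsb, to Serpina3n, a secreted protease inhibitor of reactive astrocytes and other cells, and to C1qc. Ctsb was closest to Ctsd, to Trf, which encodes transferrin, and to Serpina3n. Ctsl followed Ctsd, Lcn2 and Gpnmb, and Ctsz followed Lcn2, which encodes the iron-siderophore carrier lipocalin 2, Ctsd and Serpina3n.

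Lgmn was close to Ctsb, at r of 0.432 and 0.455, and to Ctsd, at 0.458 and 0.405. Lamp1 followed Ctsb, Serpina3n and Apoe at r of 0.251 to 0.353. Cd63 was closest to Ccn5, Serpina3n and Lcn2, at r of 0.298 to 0.358. For Ctsk the leading genes were Cemip, Adamts10 and Ptpn22, and with r of 0.0962 to 0.125 none of them followed it closely. Its sparse counts limit these values, since in section 2 it had a UMI in 30.3% of tumor and 8.18% of neural spots.

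Other lysosomal genes were read from fixed lists to see how far the pattern of the 10 genes was shared. All calls are those of edgeR's quasi-likelihood test at an adjusted p below 0.05. Each count of calls in the edge against the neural region stands beside 10.1% of all genes tested called higher and 12.8% called lower. Of 8 other cathepsin genes, 4 were called higher in the edge than in the neural region and 1 lower. Ctsh, an aminopeptidase, and Ctsc, which activates serine proteases of leukocytes, were the highest, at log2 2.46 and 2.44, and Ctsf was lower at -1.04. The same genes led in the tumor against the neural region, with Ctsc at 2.64, Ctsh at 2.46 and Ctsf at -2.03. Of 5 cathepsin inhibitors tested, 2 were called higher in the edge, Cstb at log2 2.11 (adjusted p = 0.00309) and Cst7, a cystatin of immune cells (adjusted p = 0.0178). Cst7 was then lower in the tumor than in the edge, at -2.22, and Cst6 was higher there, at 1.39.

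Enzymes for sugars and lipids were mostly called in the same direction as the proteases. Of 19 glycosidases and sulfatases, 11 were called higher in the edge than in the neural region and 2 lower, led by Gusb (log2 2.02) and Gla (2.00), with Ids (-1.09) and Gaa (-0.57) as the lower ones. Gla was also lower in the tumor than in the edge, at -1.34, as Ctsl was. Of 14 lipid enzymes and carriers, 8 were called higher in the edge and 1, Smpd1 (-0.81), lower. Acp5, tartrate-resistant acid phosphatase, had the largest fold change among them, at log2 3.96 in the edge and 5.45 in the tumor against the neural region, and the lipase Lipa stood at 2.14 in the edge.

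Membrane and pump genes were divided. Of 11 other lysosomal membrane genes, 3 were called higher in the edge, with Laptm5 (log2 1.78) and Lamp2 (0.96) leading, and Laptm4b was called lower (-0.68). Of 16 proton pump genes, 3 were called higher and 5 lower, beside 10.1% and 12.8% of all genes tested. The higher ones were Atp6v0d2 (3.70), Tcirg1 (2.40) and Atp6v0e (1.02), of which the former pair encode subunits known from macrophages and osteoclasts. Atp6v0a1 (-0.97) and Atp6v1b2 (-0.91), subunits abundant in neurons and other brain cells, led the lower ones. In the tumor against the neural region these stood at -1.95 and -1.33, and Atp6v0a1 was also lower in the tumor than in the edge, at -0.98.

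Of 10 sorting genes and regulators, 4 were called higher in the edge. Igf2r, the large mannose-6-phosphate receptor, led at log2 1.11 in the edge and 1.88 in the tumor against the neural region, and Nagpa, which uncovers the mannose-6-phosphate tag, stood at 0.97 in the edge. Of 6 other tetraspanins, 4 were called higher in the edge, with the leukocyte gene Cd53 at 2.66 and Cd9 at 1.46. Cd151 and Cd82 were higher in the tumor than in the edge, at 0.80 and 0.71, whereas Cd63 was at -0.15 without a call. The median log2 fold changes of these lists in the edge against the neural region ran from -0.15 for the proton pump to 1.36 for the tetraspanins, beside the 2.20 of the 10 genes.

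In the tumor against the neural region the same lists gave 4 higher and 1 lower call among 8 other cathepsins. They gave 12 and 2 among 19 glycosidases and sulfatases and 7 and 1 among 14 lipid enzymes and carriers. Among 11 membrane genes the calls were 5 and 1, and among 16 proton pump genes 3 and 5. Of all genes tested, 19.8% were called higher and 18.1% lower in this comparison. Leading genes not named so far were Man2b1, an alpha-mannosidase (log2 1.58), Npc2, which carries cholesterol out of the lysosome (1.80), and the sialomucin Cd164 (1.53). M6pr, the small mannose-6-phosphate receptor, stood at 1.21, whereas the sorting receptor gene Sort1 (-1.95) and Gnptg (-1.10), for a subunit of the enzyme that makes the mannose-6-phosphate tag, were called lower. Of 6 tetraspanins 4 were called higher, led by Cd151 at 2.06. Inside the mass against the edge, few list genes were called: besides those above, Manba (0.84) and the cystine carrier gene Ctns (0.85) were higher and Lipa (-0.95) was lower.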

How the data were processed

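UMI counts per gene and spot were deposited by the authors for 2 sections, as raw counts made with Space Ranger 2.1.1 (mm10 in the submitters' notes) and without normalization. The version of the probe panel is not given in the sources used here. The coordinates and promoter windows are from RefSeq (GRCm38.p6).

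Spots with under 500 UMIs or under 10 genes were left out (91 and 18 spots), following the study's filter, as were 6 and 57 spots of small areas. The study also limited its analysis to marked regions of interest, which was not done here. Each spot was scored as the mean log2(CPM + 10) of epithelial and stromal genes minus that of neuronal and glial genes, averaged over up to 6 neighbors and split by Otsu's threshold in each section. The mass was the connected spots above it, in areas of at least 50 spots. Sums of UMIs over the spots of each region of each section gave 8 libraries, because spots of 1 section are not replicates and all regions of a section come from the same animal.

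edgeR 4.0.16 in R 4.3.3 was used (filterByExpr by region, TMM factors of 0.821 to 1.12, glmQLFit robust, glmQLFTest), with the section as a block. The edge entered as the mean of the coefficients of its sides. The block lowered the common dispersion from 0.137 to 0.0779. Fold changes within 1 section were taken after adding 0.5 CPM. CPM of single spots, of steps from the border, of marker-ranked edge spots and of whole mass areas were not scaled by TMM. Depth was high for all members but Ctsk, so the number of sections limits the precision, and Poisson intervals at the 95% level cover counting error only. The study describes the sections as biological replicates.

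Before use, the fit was run on simulated counts in which the sections differed in depth only. That run does not cover sections that differ in make-up as these do. Alternatives were RLE factors, library size alone, raw UMIs per spot, no filter, DESeq2 1.42.0, no block, each section left out, edges of 1 or 3 steps, edge sides summed, a minimum of 1000 UMIs, a midpoint threshold, a mass score without epithelial genes, no averaging over neighbors, neural spots within 12 steps, and, added after seeing the data, the largest mass area of each section only. The other steps ran in Python 3.11.15 (pandas 2.3.3, numpy 2.4.6, scipy 1.17.1, scikit-image 0.26.0; figures by matplotlib 3.10.9).

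The members and lists were chosen with earlier results of these data known. Named besides the members were from each lysosomal list up to 2 genes a direction, those called genes that moved alike in the sections and had the largest log2 fold changes, the 3 genes most like each member across spots, and cell type markers that moved with a result. Atp6v0e was added after its value was seen. Some listed genes, Stfa1, Stfa2 and Atp6v1a among them, were not analysed here, and 1 gene most like a member is not reported here.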

Additional observations from a re-analysis of the deposited data

How the results depend on the processing

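The direction of the fold change was kept by each member in each comparison and setting with a test, except for Ctsl in the tumor against the neural region, which turned to -0.32 with neural spots within 12 steps of the mass. That reference also left 0 members called in the tumor against the neural region (6035 of all genes), 5 in the edge against the neural region (2230 of all genes) and 5 in the tumor against the edge (2936 of all genes). With the edge sides summed, which leaves 6 libraries, 4 members and 1620 genes were called in the edge against the neural region and 1 member and 692 genes in the tumor against the edge. In the tumor against the edge, 5 members were called with library size only (2355 genes), with DESeq2 (4435 genes) or with an edge of 1 array step (2375 genes). With an edge of 3 array steps 1 member and 2124 genes were called. The fit reported above called 3 members and 2726 genes in this comparison. Without the replicate block, 2 members and 1402 genes were called in that comparison. In raw UMIs per spot, with no test, Ctss, Ctsz, Lgmn, Lamp1 and Cd63 lay above the edge inside the tumor (log2 0.29, 0.19, 0.12, 0.88 and 0.79 as means of the sections). Between the edge sides, where 0 genes were called, DESeq2 called 456 and an edge of 3 array steps 109. The cause of these shifts was not tested, other than that summing leaves fewer libraries. With the largest mass area of each section only, an alternative chosen after seeing the data, the number of called members was within 1.5 times in each comparison.

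Of 670 member values under the alternatives, 592 kept their side of the threshold or stayed within the spread of the sections. Another 30 lost a call, 11 gained one, 36 moved by more than the spread and 1 was labeled reversed. With a section left out, the spread came from the same 2 sections, so that all 10 members stayed within it says nothing about stability. Among values with no test, only genes called in the fit could be labeled reversed. Other changes of sign are not in that count, such as those of single sections and of raw UMIs per spot given above for the tumor against the edge. Depth limits Ctsk in section 2, whose edge sides rest on 100 and 31 UMIs. No count of calls could be made without a section or in raw UMIs per spot, since 1 section leaves no residual degrees of freedom and raw values were not tested. Leaving out a section, the log2 fold change of Cd68 in the edge against the neural region ran from 3.10 to 3.64, that of Lamp1 from 0.76 to 1.06, and that of Ctsk in the tumor against the neural region from 0.55 to 5.58.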
